A study of Brassica napus with 6 samples.

Results

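NAC, WRKY and ERF proteins are families of plant transcription factors that switch on or off genes of senescence, defence, cold, drought and cell wall formation. NAC factors include promoters of leaf senescence and of secondary wall deposition. WRKY factors bind the W-box of defence genes, and several act below the kinase cascades of plant immunity. ERF factors bind the GCC-box of genes that respond to ethylene and jasmonate, and their DREB relatives bind the dehydration-responsive element of cold and drought genes. These families were followed in the silique wall, the outer tissue of the pod, of rapeseed (Brassica napus), an allotetraploid with an A and a C subgenome.

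Members were the genes whose Swiss-Prot description named a NAC domain or NAC transcription factor, a WRKY protein, an ethylene-responsive transcription factor or a dehydration-responsive element-binding protein. Copies of the senescence loci AT1G69490 and AT5G39610, and genes ending within the first 6 Mb of A02 or C02, were left out. This gave 69 of the 3248 listed genes, of which 22 were NAC, 17 WRKY and 30 ERF genes, the last including 7 DREB genes. The rule dropped 7 genes by locus and 2 by position. The latter were an ERF113 copy, BnaA02g01570D (A02, end 739044), and an AIL6 gene, BnaC02g00280D (C02, end 103626), with log2 fold changes of -3.24 and 1.04 in the authors' deposited table. The kept member nearest to the limit was BnaA02g23840D (A02, 17139707 to 17147166), with -1.69 in the authors' deposited table.

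Wall tissue was taken 15 days after flowering from lines of an association population, and equal parts were mixed into a long pool (12 accessions with long siliques) and a short pool (11 accessions with short siliques). There were 3 libraries per pool. No treatment is named in the labels. The labels do not tie the libraries to different plants or mixes, so the p-values below reflect the spread among libraries alone, and that spread may be technical. In such mixed tissue, fewer cells of a type and less RNA per cell cannot be told apart.

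The table holds a selection, the genes past the authors' threshold for a difference between these pools, and no gene in it has a log2 fold change smaller in size than 1. A second test on the same libraries is therefore no independent evidence, and calls and directions of members are given as a description beside those of all listed genes. Library totals recovered from counts and FPKM lay between 22892442 and 30259269 reads. A level in CPM is a count scaled to that total, and 3 counts in 1 library corresponded to between 0.0991 and 0.131 CPM. None of the 6 fruit patterning loci searched for as tissue markers was listed, so the tissue label could not be checked. Of 11 seed loci 1 was listed, at 0 to 0.0661 CPM in the long libraries and 1.85 to 4.12 CPM in the short ones, and it was at 0 in 1 long library. The 7 listed genes of a pollen and stamen list summed to 12.2 to 14.9 CPM in the long and 20.8 to 26.0 CPM in the short libraries, 4 of them lower and 3 higher in the long pool. The part of seed or stamen RNA in the results below was not tested.

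Most members stood lower in the long pool. In the authors' deposited table, 63 of the 69 members (91.3%) were lower in the long pool, against 65.6% of all listed genes. All 22 NAC genes, 12 of 17 WRKY genes and 29 of 30 ERF genes were lower. Per library, the CPM of both pools did not overlap in 64 of 69 members, 58 lower and 6 higher in the long pool, whereas among all listed genes 62.2% were lower without overlap and 33.1% higher. The authors' selection favours such non-overlap. In 17 of the 69 members counts were too low for the edgeR filter, and 52 were tested. Of these, 34 passed (edgeR quasi-likelihood test, adjusted p of at most 0.05 and p of at most 0.005), 31 lower and 3 higher in the long pool, which is 65.4% against 66.6% of all 2574 tested genes. The share of members called was near that of the table. The share lower in the long pool was above that of the table, a difference that was not tested.

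**Figure D1:**
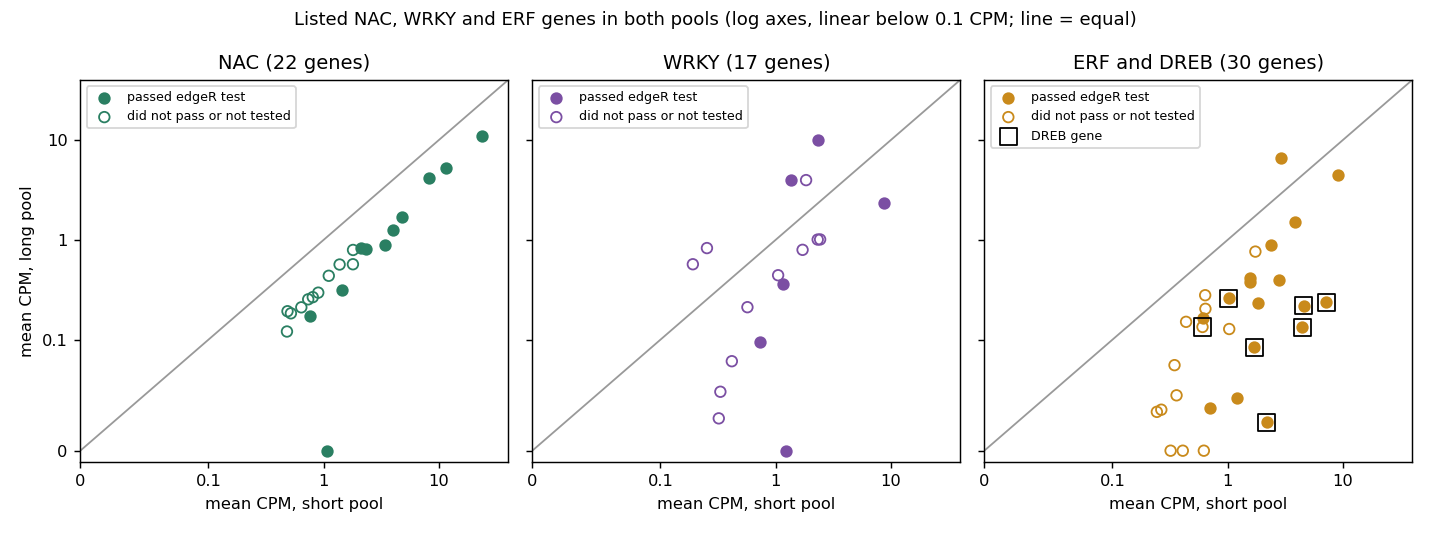
Mean CPM of each of the 69 members in the short pool (x axis) and the long pool (y axis), by family, on log axes that are linear below 0.1 CPM; filled points passed the edgeR test and squares mark DREB genes. All 22 NAC genes and 29 of 30 ERF genes lie below the line of equal levels, while 5 of 17 WRKY genes lie above it.

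The calls by family were 11 of 20 tested NAC genes (55.0%), 6 of 12 tested WRKY genes and 17 of 20 tested ERF genes (85.0%). By direction, 43.5% of all tested genes were called lower and 23.1% higher in the long pool, against 11 and 0 NAC genes, 4 and 2 WRKY genes and 16 and 1 ERF genes. The median log2 fold change, long over short, was -1.53 for the tested NAC genes, -1.23 for WRKY and -1.98 for ERF, against -1.22 for all tested genes. Genes at 0 counts in a pool, 1 NAC and 1 WRKY gene, left these medians as they were when set to their bound. With TMM factors over the listed genes, which raise log2 fold changes by a median of 0.84, the calls higher and lower became 0 and 1 for NAC, 4 and 1 for WRKY and 1 and 8 for ERF, against 948 and 302 for all tested genes. Leaving out long silique replicate 1 left 5 NAC and 9 ERF calls, while calls over all tested genes went from 1713 to 1109. Leaving out long silique replicate 2 left 6 NAC and 10 ERF calls, with 1116 over all tested genes. Leaving out short silique replicate 1 or 3 left 6 NAC calls, with 1351 and 1365 over all tested genes.

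Levels of these regulators were low, as were those of the listed genes in general. Summed over each family, deposited FPKM, a level per transcript length, was 20.4, 23.2 and 24.9 for NAC in the long libraries and 63.2, 56.0 and 54.2 in the short ones. For ERF the sums were 23.0, 23.8 and 23.2 against 85.8, 82.7 and 56.9, and for WRKY 14.7, 12.4 and 17.5 against 17.3, 21.8 and 17.1. The sums of both pools were apart for NAC and ERF and overlapped for WRKY, whose members went both ways. These sums hold only genes that the authors selected for a difference between the pools. That selection favours such separation, and family members outside the table are missing from the sums. The mean FPKM over all libraries was under 1 for 11 NAC, 11 WRKY and 17 ERF genes. The median of this mean was 0.964 for NAC, 0.762 for WRKY and 0.811 for ERF genes, against 1.25 for all listed genes.

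Among the NAC genes, several belonged to loci with known roles in ageing or wall thickening. The highest level per length was that of BnaC05g00910D (C05, 496075 to 498673), described as NAC domain-containing protein 1 (ANAC001). It stood at 8.51, 12.2 and 12.3 CPM in long silique replicates 1 to 3 and at 27.2, 23.0 and 19.8 CPM in the short libraries. All 3 long libraries were below all short ones, and its log2 fold change was -1.09 ± 0.20 (SE; edgeR adjusted p = 0.00411). Its call ended without long silique replicate 1 (edgeR adjusted p = 0.0507) and with each of the 3 other scalings (TMM, DESeq2 size factors, column sums).

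ORS1, a NAC factor that promotes leaf senescence in Arabidopsis, is encoded by AT3G29035, the locus assigned to 3 listed genes, which the description column calls NAC domain-containing protein 100. BnaA06g31080D (A06, 20903890 to 20905358) stood at 0.700, 1.12 and 0.830 CPM in the long and 3.34, 3.79 and 3.06 CPM in the short libraries (log2 fold change -1.93 ± 0.30, SE; edgeR adjusted p = 0.00102). This call held without each library in turn and ended under TMM and DESeq2 scaling. BnaCnng49350D (Cnn_random, 48813706 to 48814824) had 0 counts in every long library and 27, 46 and 15 counts in the short ones. With 3 counts over the whole long pool as the floor, it was at least 28.3-fold lower there, and it passed the test in the main fit and in all 13 alternative fits (edgeR adjusted p = 0.000384). The third copy, BnaA09g02500D, lay at 0.311, 0.231 and 0.218 CPM against 0.824, 0.786 and 0.590 CPM and did not pass (edgeR adjusted p = 0.0948).

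LOV1, known in Arabidopsis for its effects on flowering time and cold tolerance, is the product of AT2G02450, assigned to a pair of genes described as ANAC094. The A copy, BnaA06g34140D (A06, 22586446 to 22589435), went from 13.2, 10.6 and 11.1 CPM in the short to 4.35, 5.29 and 6.07 CPM in the long libraries, and the C copy, BnaC07g21770D, from 7.10, 9.06 and 8.59 to 3.77, 3.77 and 4.81 CPM. Both fell, with log2 fold changes of -1.15 ± 0.21 and -1.01 ± 0.22 (SE; edgeR adjusted p = 0.00364 and 0.0141). Both calls ended with each of the 3 other scalings (TMM, DESeq2 size factors, column sums). With TMM the log2 fold changes were -0.30 for the A copy and -0.17 for the C copy. The C copy lost its call without long library 1 or 2 or short library 2 or 3 (edgeR adjusted p 0.0587 to 0.111). Of the pair assigned to AT2G33480 and described as rice ONAC048, BnaC04g43920D was at 1.90, 1.32 and 1.79 CPM in the long and 5.22, 4.17 and 5.05 CPM in the short libraries (log2 fold change -1.53 ± 0.27, SE; edgeR adjusted p = 0.00253). The call of BnaC04g43920D held without each library in turn and ended under TMM and DESeq2 scaling. The partner BnaA05g10110D had -1.27 ± 0.35 (SE) and did not pass (edgeR adjusted p = 0.0816).

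Other NAC loci with several copies were described after their values were seen. ANAC055, a jasmonate- and abscisate-responsive factor of AT3G15500, was listed with 5 copies that summed to 1.75, 2.31 and 3.15 CPM in the long and 7.30, 5.91 and 6.75 CPM in the short libraries. Of its 4 tested copies 2 passed, and their log2 fold changes spanned -1.62 to -1.32. The call of BnaA05g24050D was lost without long library 1 or 2 or short library 1 or 3 (edgeR adjusted p 0.0780 to 0.153), and that of BnaC05g38150D without long library 1, 2 or 3 or short library 1 or 3 (edgeR adjusted p 0.0793 to 0.215). NST2 (AT3G61910, ANAC066), which drives wall thickening in Arabidopsis anthers, had 3 copies summing to 1.32, 2.05 and 0.830 against 4.47, 4.72 and 3.25 CPM. Of these, BnaA09g39480D passed with -2.15 ± 0.48 (SE; edgeR adjusted p = 0.0183), a call lost without long library 1 or 3 or short library 1 (edgeR adjusted p 0.0969 to 0.141). In contrast, BnaC06g18290D (0.855, 1.26 and 0.262 against 1.92, 2.36 and 1.11 CPM) was the NAC gene whose pools overlapped. A pair assigned to AT3G04070, the Arabidopsis gene of the leaf-movement factor SPEEDY HYPONASTIC GROWTH, summed to 1.90, 1.02 and 1.62 against 6.91, 2.26 and 5.24 CPM, with short silique replicate 2 the lowest of the short libraries. The C01 copy, BnaC01g40250D, passed (edgeR adjusted p = 0.0458) and lost its call without long library 1, 2 or 3 or short library 1 or 3 (edgeR adjusted p 0.180 to 0.335), while BnaC05g47490D did not pass (edgeR adjusted p = 0.285). BnaA05g26240D, described as NAC21/22, had -2.17 ± 0.49 (SE; edgeR adjusted p = 0.0183), and its log2 fold change became -2.79 without long silique replicate 3. This call was lost without long library 1 or 2 or short library 1, 2 or 3 (edgeR adjusted p 0.0733 to 0.209). Each call named in this paragraph ended with the 3 other scalings too. The last 3 NAC genes, 2 of them described as CUP-SHAPED COTYLEDON 3, did not pass or were not tested.

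**Figure D2:**
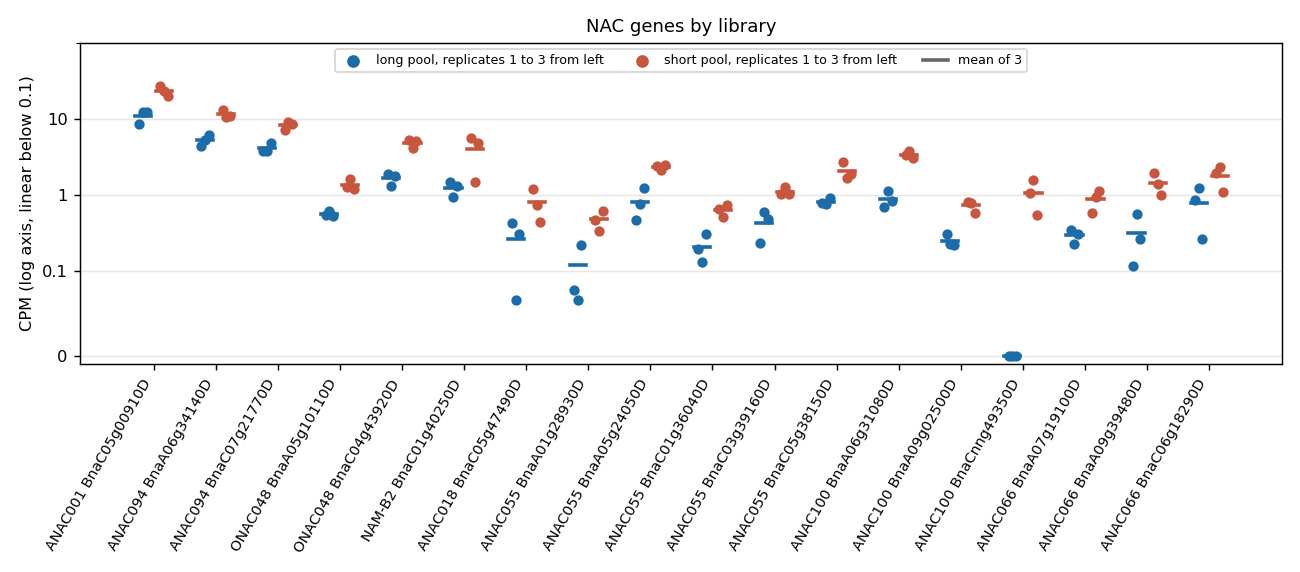
CPM of 18 NAC genes in each library (points, replicates 1 to 3 from left to right in each pool; bars are means of 3), grouped by Arabidopsis locus, on an axis that is linear below 0.1 CPM. The long libraries lie below the short ones in all but the rightmost gene, and BnaCnng49350D is at 0 in all long libraries.

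WRKY genes split into those lower and those higher in the long pool. Among the lower ones, WRKY33, an Arabidopsis regulator of camalexin synthesis and of resistance to necrotrophic fungi, was listed with an A and a C copy. BnaA03g17820D (A03, 8415037 to 8417334) stood at 2.68, 1.59 and 2.71 CPM in the long and 6.63, 10.9 and 8.52 CPM in the short libraries, with a log2 fold change (-1.91 ± 0.27, SE) that passed the test (edgeR adjusted p = 0.000430). BnaC04g06800D was lower too, at a lower level, 0.427, 0.397 and 0.262 against 1.06, 1.5 and 0.922 CPM (-1.66 ± 0.41, SE; edgeR adjusted p = 0.0386). The call of the A copy held without each library in turn, whereas that of the C copy ended in all 6 such fits, with edgeR adjusted p between 0.0640 and 0.267. Under TMM and DESeq2 scaling the call of the A copy ended too (edgeR adjusted p = 0.0534 and 0.0908). The call of the C copy ended with each of the 3 other scalings.

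Other WRKY genes of the defence response lay lower in the long pool without a call. Both copies of WRKY40, a repressor of defence and abscisate responses, summed to 0.855, 0.727 and 1.53 CPM against 2.47, 4.0 and 1.77 CPM. Both copies of WRKY22, which acts in flagellin-triggered immunity, summed to 0.855, 0.892 and 1.27 against 2.08, 2.39 and 2.36 CPM. Of each pair 1 copy was tested and did not pass (edgeR adjusted p = 0.106 and 0.179). WRKY25 (BnaA05g12160D), linked to heat and salt tolerance, had 0.777, 1.19 and 1.05 against 2.47, 2.32 and 2.14 CPM and just missed the threshold (edgeR adjusted p = 0.0520). These 5 genes were described after their values were seen.

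Higher in the long pool was BnaC06g00390D (C06, 633793 to 636363), described as WRKY7, a calmodulin-binding repressor of defence in Arabidopsis. It had 3.26, 4.23 and 4.54 CPM in the long and 1.06, 1.33 and 1.70 CPM in the short libraries, and no overlap, with a log2 fold change (1.55 ± 0.29, SE) that passed the test (edgeR adjusted p = 0.00403). WRKY12 (BnaA04g25840D), which holds back secondary wall formation in the pith of Arabidopsis stems, was the WRKY gene with the highest level per length. It stood at 4.35, 2.97 and 4.54 CPM in the long and 2.51, 1.85 and 1.14 CPM in the short libraries, but did not pass (log2 fold change 1.11 ± 0.31, SE; edgeR adjusted p = 0.0841). It passed without short silique replicate 1 (edgeR adjusted p = 0.0402) and with the 3 other scalings. WRKY51 (BnaA02g34400D), of jasmonate signalling, was at 0.583, 0.628 and 1.27 against 0.157, 0.308 and 0.295 CPM and did not pass (edgeR adjusted p = 0.107). WRKY54 (BnaA03g19190D), a restraint on leaf senescence, was not tested, with 45 counts over the long and 16 over the short pool. The other 3 WRKY genes, described as WRKY19, WRKY28 and WRKY31, lay lower in the long pool without a call.

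Some members described as WRKY were given Arabidopsis loci of immune receptors. The deposited functional classes placed 12 of the 17 WRKY genes in the WRKY transcription factor class, 2 in biotic stress regulation, 1 among pathogenesis-related proteins and 2 in no class. RRS1, an intracellular receptor with a WRKY domain, is encoded by AT5G45260, the locus given to 2 members that went in opposite directions. BnaC09g18980D (C09, 15838049 to 15848398), described as WRKY16, stood at 10.4, 9.55 and 9.96 CPM in the long and 2.20, 1.81 and 3.02 CPM in the short libraries. Its log2 fold change, 2.09 ± 0.24 (SE; edgeR adjusted p = 6.70e-05), was the largest rise among the members, and the call held in all 13 alternative fits. BnaA02g23840D, described as WRKY52, had 0 counts in all long libraries and 31, 53 and 18 counts in the short ones, at least 32.8-fold lower in the long pool by the same floor (edgeR adjusted p = 0.000291). BnaC07g35930D, described as WRKY19 but given the receptor locus AT4G19510, had 0.117, 0.132 and 0.0437 against 1.02, 0.547 and 0.627 CPM (-2.79 ± 0.53, SE; edgeR adjusted p = 0.00474), a call that ended without long silique replicate 1 (edgeR adjusted p = 0.0588). That call ended under TMM and DESeq2 scaling too. At most 3 counts over the long pool with at least 10 in every short library were found for 4 members, this WRKY52 gene, the ORS1 copy above, and a DREB1F and an ERF109 gene below, against 3.97% of all listed genes.

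**Figure D3:**
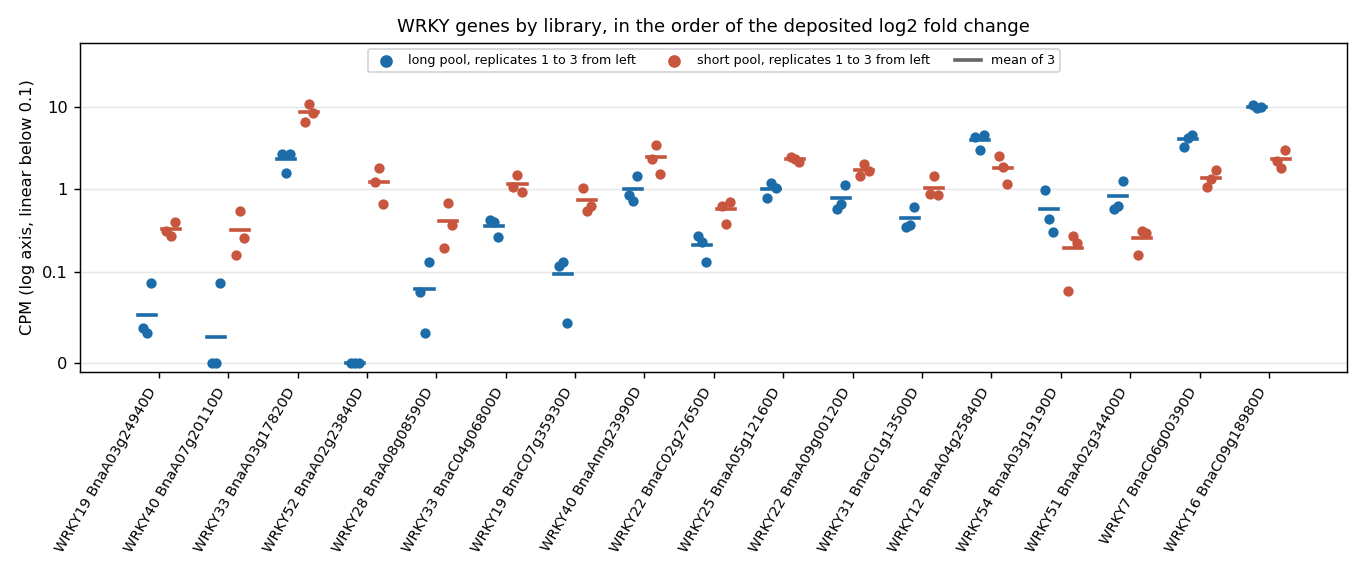
CPM of the 17 WRKY genes in each library (points, replicates 1 to 3 from left to right in each pool; bars are means of 3), in the order of the authors' deposited log2 fold change, on an axis that is linear below 0.1 CPM. The 12 genes at the left are lower in every long library than in any short one, and the 5 at the right are higher.

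Among tested members with counts in both pools, the 3 largest falls were those of DREB1F genes, followed by an ERF025 gene. All 5 listed genes described as DREB1F had their pools apart and passed the test in the main fit and in all 13 alternative fits. DREB1F, also called DDF1, is an Arabidopsis factor of salt, drought and cold responses that raises the inactivation of gibberellin. BnaC08g15650D (C08, 20051762 to 20052370) stood at 0.0777, 0.198 and 0.437 CPM in the long and 8.32, 9.16 and 3.91 CPM in the short libraries, with a log2 fold change (-4.92 ± 0.47, SE) that passed the test (edgeR adjusted p = 2.05e-05). BnaCnng31550D had 0.0389, 0.231 and 0.131 against 7.14, 4.34 and 1.81 CPM (-4.95 ± 0.60, SE; edgeR adjusted p = 0.000320). On A09, BnaA09g47030D (A09, 31755875 to 31756686) had 2 counts over the long and 181 over the short pool. The short level was 87.2 times the long one, with an exact 95% interval from counting of 23.8 to 726.

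The remaining DREB1F copies were lower too. BnaAnng36290D went from 4.43, 6.39 and 2.84 CPM in the short to 0, 0.264 and 0.393 CPM in the long libraries (-4.37 ± 0.57, SE; edgeR adjusted p = 0.000620), and BnaC08g41070D from 2.35, 1.85 and 0.885 to 0.0389, 0.0661 and 0.175 CPM (-4.17 ± 0.57, SE; edgeR adjusted p = 0.000339). Summed over all 5 copies, DREB1F stood at 0.155, 0.793 and 1.18 CPM in the long and 24.6, 25.1 and 10.3 CPM in the short libraries. Long counts were few, so the size of the fall moved with single libraries. Over the fits that left out 1 library, the log2 fold changes of the 5 copies ran from -6.62 to -3.80. Without long silique replicate 3 the log2 fold changes of BnaC08g15650D, BnaAnng36290D and BnaC08g41070D were -5.61, -4.97 and -4.87, and without long silique replicate 2 that of BnaCnng31550D was -5.66. Only uniquely mapped reads were counted, so reads that near-identical copies share are not in these values, and the split between copies is uncertain.

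Within the short pool, the libraries differed for these genes. Short silique replicate 3 was the lowest short library for all 7 DREB genes and for 17 of 30 ERF and DREB genes, against 34.5% of all listed genes. Long silique replicate 1 was the lowest long library for 5 of the 7 DREB genes, against 31.1% of all listed genes. Long counts were few, at 4, 24 and 27 in long silique replicates 1 to 3 summed over the 5 DREB1F copies. For a single gene that order can therefore rest on a few reads. Over genes with at least 60 counts in the short pool, the median coefficient of variation between short libraries was 41.8% for 6 DREB genes, 39.0% for 17 ERF and DREB genes, 26.3% for 10 WRKY genes and 16.5% for 18 NAC genes, against 21.2% for 2013 listed genes. Copies are not independent of each other, and without short silique replicate 3 all 5 DREB1F copies still passed.

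**Figure D4:**
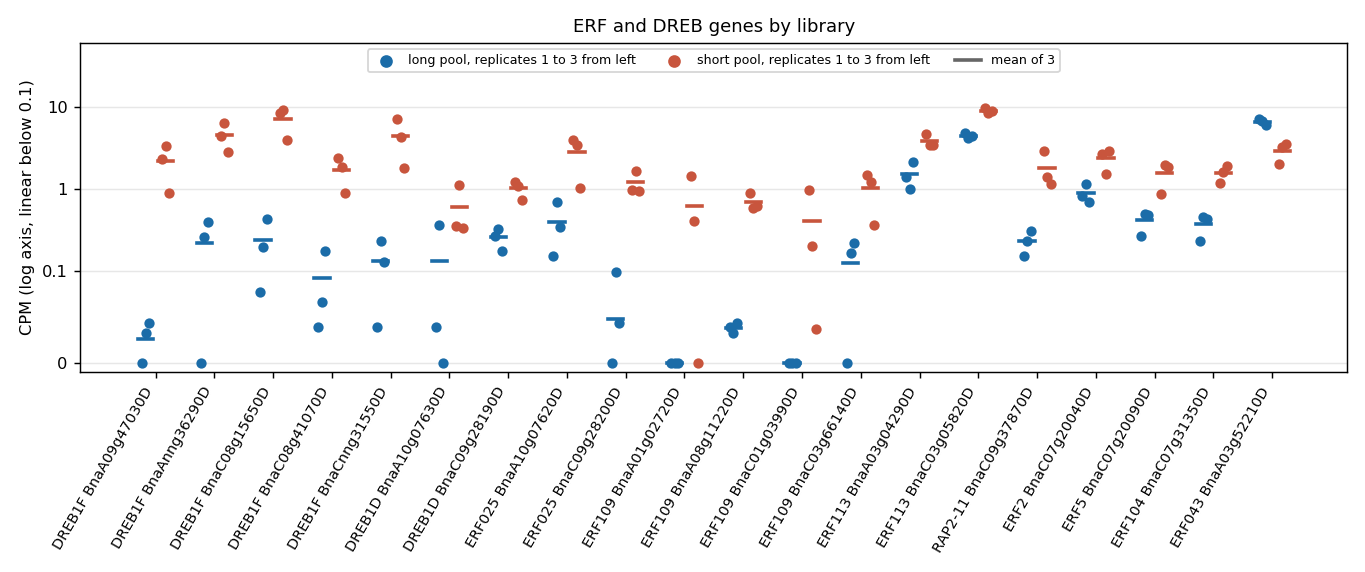
CPM of 20 ERF and DREB genes in each library (points, replicates 1 to 3 from left to right in each pool; bars are means of 3), grouped by name, on an axis that is linear below 0.1 CPM. The 5 DREB1F genes on the left lie under 0.5 CPM in the long and between 0.885 and 9.16 CPM in the short libraries, and short silique replicate 3 is the lowest short library in each.

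A locus pair next to each other was listed in both subgenomes. On A10, the ERF025 gene BnaA10g07620D lies 3067 bases from the DREB1D gene BnaA10g07630D, and on C09, BnaC09g28190D (DREB1D) and BnaC09g28200D (ERF025) lie 6251 bases apart. DREB1D, also called CBF4, is known from Arabidopsis drought and abscisate responses. BnaC09g28200D had 0, 0.0991 and 0.0437 CPM in the long and 0.981, 1.67 and 0.959 CPM in the short libraries, with a log2 fold change (-4.46 ± 0.64, SE) that passed the test (edgeR adjusted p = 0.000481). The fold change became -5.58 without long silique replicate 2. BnaA10g07620D had 0.155, 0.694 and 0.349 against 3.96, 3.38 and 1.03 CPM (-2.75 ± 0.55, SE; edgeR adjusted p = 0.0124). It became -3.47 without long silique replicate 2, and its call ended without long library 1 or 3 or short library 1 or 2 (edgeR adjusted p 0.0630 to 0.112). Under TMM and DESeq2 scaling this call ended too. The DREB1D neighbour on C09 had -1.93 ± 0.45 (SE; edgeR adjusted p = 0.0234), a call lost without long library 1, 2 or 3 or short library 1 or 2 (edgeR adjusted p 0.0690 to 0.135). That call ended with the 3 other scalings too. The DREB1D gene on A10 was below the filter, with 0.0389, 0.364 and 0 against 0.353, 1.13 and 0.332 CPM and overlapping pools. These 4 genes were described after their values were seen.

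ERF109, a redox-responsive factor of reactive oxygen and jasmonate signalling, was listed with 4 copies, all lower in the long pool. BnaA08g11220D (A08, 10232887 to 10233918) had 3 counts over the long and 57 over the short pool. The short level was 18.3 times the long one (exact 95% interval from counting 5.96 to 91.4; edgeR adjusted p = 0.000455), and its call held in all 13 alternative fits. The other copies were below the filter. BnaA01g02720D had 0 counts in the long pool and 37, 12 and 0 in the short libraries, and BnaC01g03990D had 0 against 25, 6 and 1. By the floor of 3 counts over the pool they were at least 15.7-fold and 10.3-fold lower in the long pool, with most of the short counts in short silique replicate 1. In BnaA01g02720D the pools overlapped, since short silique replicate 3 was at 0 as well. BnaC03g66140D had 10 counts over the long and 84 over the short pool. Summed, ERF109 stood at 0.0389, 0.198 and 0.262 CPM in the long and 4.83, 2.43 and 1.03 CPM in the short libraries.

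Higher in level and smaller in change were the 2 kept copies of ERF113 (AT5G13330, RAP2.6L), a factor of wound and stress responses. The copy left out by position, BnaA02g01570D, had a larger fall. It stood at 0.0861 ± 0.0467 CPM in the long and 1.54 ± 1.13 CPM in the short pool (SD, n = 3; log2 fold change -4.04 ± 0.68, SE; edgeR adjusted p = 0.00231). BnaC03g05820D (C03, 2838368 to 2840604) had the highest FPKM of the ERF genes. It stood at 4.78, 4.13 and 4.46 CPM in the long and 9.73, 8.44 and 8.78 CPM in the short libraries (-1.01 ± 0.20, SE; edgeR adjusted p = 0.00811), a call that ended without long silique replicate 2 (edgeR adjusted p = 0.0553) and with the 3 other scalings. BnaA03g04290D had -1.37 ± 0.31 (SE; edgeR adjusted p = 0.0201), a call lost without long library 1 or 2 or short library 1 (edgeR adjusted p 0.105 to 0.184). That call ended with the 3 other scalings too. The one ERF gene higher in the long pool was BnaA03g52210D (A03, 27212373 to 27213154), described as ERF043 and given no Arabidopsis locus. It rose from 2.0, 3.25 and 3.5 CPM in the short to 7.0, 6.77 and 6.07 CPM in the long libraries (1.18 ± 0.25, SE; edgeR adjusted p = 0.0129). This call ended without long silique replicate 1 or 2 or short silique replicate 1 (edgeR adjusted p between 0.0522 and 0.0952).

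Among the remaining ERF genes, chosen for mention after their values were seen, RAP2-11 (BnaC09g37870D), a factor of the low-potassium response, was called lower in all 13 alternative fits too (0.155, 0.231 and 0.306 against 2.90, 1.40 and 1.14 CPM; -2.96 ± 0.47, SE; edgeR adjusted p = 0.00127). The immunity factor ERF104 (BnaC07g31350D) had -2.04 ± 0.40 (SE; edgeR adjusted p = 0.00652), a call lost without long library 1 or short library 3 (edgeR adjusted p 0.0522 to 0.0636). ERF2 and ERF5, both activators of defence genes, are encoded by BnaC07g20040D and BnaC07g20090D, which lie 33826 bases apart on C07. They had log2 fold changes of -1.39 ± 0.35 and -1.90 ± 0.42 (SE; edgeR adjusted p = 0.0405 and 0.0172), and passed. The call of ERF2 was lost without long library 1, 2 or 3 or short library 1 or 3 (edgeR adjusted p 0.0736 to 0.247), and that of ERF5 without long library 1, 2 or 3 or short library 2 or 3 (edgeR adjusted p 0.0544 to 0.151). ERF017 (BnaC08g36830D) passed (edgeR adjusted p = 0.0342) and lost its call without long library 1, 2 or 3 or short library 1, 2 or 3 (edgeR adjusted p 0.0783 to 0.321). With TMM factors the calls of ERF104, ERF2, ERF5 and ERF017 ended too. The other 9 ERF genes, the AP2-like gene SMZ among them, had 0 to 61 counts over the long and 20 to 143 over the short pool. Of these 9, 3 were tested and did not pass, and the pools of 2 overlapped.

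Of the members, 42 belonged to 16 Arabidopsis loci with more than 1 listed copy, and in 15 of these loci all copies had the same sign in the authors' deposited table. The exception was the RRS1 locus. With 91.3% of all members lower in the long pool, and every NAC gene among them, most such loci would share a sign in any case. Because the table holds only genes past the authors' threshold, copies outside it are not analysed here. The listed copies with one sign need not be all copies of the locus.

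**Figure D5:**
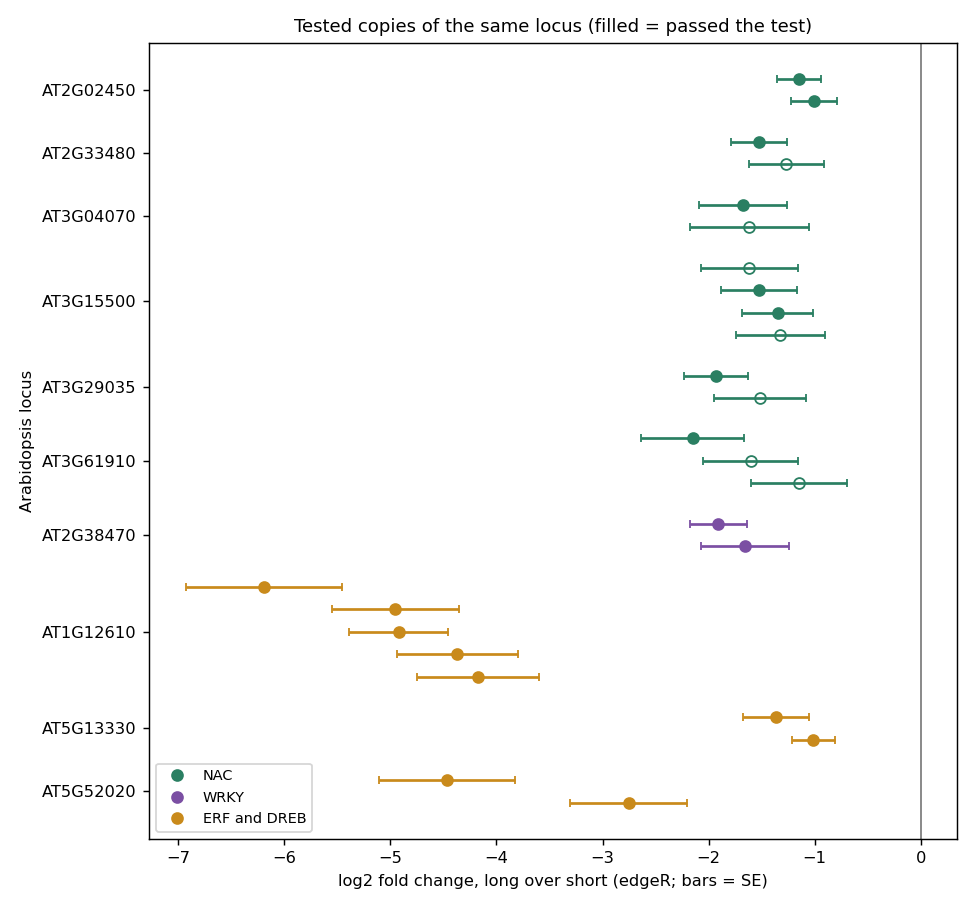
Log2 fold change, long over short, of tested copies with counts in both pools, grouped by Arabidopsis locus for loci with at least 2 such copies; bars are SE and filled points passed the edgeR test. The 5 copies of AT1G12610 (DREB1F) lie between -6.19 and -4.17, and all copies of the NAC loci lie between -2.15 and -1.01.

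Genes known to act with factors of these families were sought by locus, and whether the members act with them was not tested. Of 12 ethylene signalling loci, 10 defence loci targeted by WRKY and ERF factors, and 11 cold and drought loci targeted by DREB factors, 0 were among the listed genes. The authors listed 3248 genes of 65264 implied as tested, so most loci would be absent in any case. An absent locus had no gene assigned to it past the authors' threshold, and its level in the pools is not known here. Of 8 loci of WRKY partners and kinases 2 were listed. SIB2 (BnaC04g01680D), a chloroplast protein that also binds WRKY33, was higher in the long pool, at 2.21 ± 0.0926 CPM against 0.781 ± 0.0414 CPM (SD, n = 3; log2 fold change 1.49 ± 0.31, SE; edgeR adjusted p = 0.0105). The kinase gene MKK4 (BnaA05g15300D) had -1.35 ± 0.49 (SE) and did not pass (edgeR adjusted p = 0.378).

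Known targets of senescence NAC factors were listed for 2 of 7 loci, with 5 genes. All 5 were called lower in the long pool, against 43.5% of tested genes. They were copies of the protease gene SAG12 and of the nuclease gene BFN1, and the lowest p was that of the SAG12 copy BnaA02g24130D (0.324 ± 0.214 against 6.89 ± 1.76 CPM, SD, n = 3; edgeR adjusted p = 1.29e-05). Targets of secondary wall NAC factors were listed for 3 of 7 loci, with 4 genes, all lower and 3 called, against 43.5% of tested genes called lower. Among them, the lowest p was that of a copy of the cellulose synthase gene CESA7, BnaA02g03580D. It stood at 7.24 ± 1.69 against 20.4 ± 6.24 CPM (SD, n = 3; edgeR adjusted p = 0.00203). The other CESA7 copy, BnaC03g08460D, had 11.6 ± 3.22 against 25.9 ± 8.01 CPM (SD, n = 3; edgeR adjusted p = 0.0157). The rule on position in A02 and C02 was applied to members only, not to these lists. The wall regulator MYB46 (BnaA10g30020D) had -1.31 ± 0.45 (SE) and did not pass (edgeR adjusted p = 0.264). The median log2 fold changes of these 2 lists were -2.22 and -1.23, against -1.22 for all tested genes.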

How the data were processed

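Groups and replicate numbers came from the sample titles. Per the series design text, quantification used reads with a unique place in the Darmor genome. Release, aligner and counter were not given in the sources used here. The submitters' processing notes name edgeR and DESeq2. Per the file headers, the authors deposited for 3248 genes a read count and an FPKM per library, a log2 fold change, a p-value and an FDR, and 59362 blank rows were left out. The authors' deposited log2 fold change differed from log2 of mean FPKM plus 0.1 by a median of 0.0207, so it understates changes of genes with low FPKM. Coordinates are those of the deposited table.

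Library totals were recovered from counts divided by FPKM and span, as the median of values within 0.5% of their 95th percentile, using genes with 200 or more counts and FPKM of 5 or more. The main test was the robust quasi-likelihood test of edgeR 4.0.16 (R 4.3.3) on the deposited counts after filterByExpr, with these totals and no TMM, because TMM assumes mostly unchanged genes. The Benjamini-Hochberg adjustment ran over 65264 genes, the number implied by the authors' p-values and FDR in the first 20 ranks. A gene was called at an adjusted p of at most 0.05 and a p of at most 0.005. The spread was estimated over the selected genes only.

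A simulated set for long against short held 2574 genes, some of them without a change. With the adjustment over 65264 genes, edgeR found 76% of changes of log2 2 and 7% of log2 1, with 1 false call. Adjusted over the 2574 genes alone, these shares were 95% and 42%, with 8 false calls. The listed genes were all selected for a difference, and 66.6% of the tested ones were called. The simulated rates therefore need not apply to them. Alternatives were other scalings, no filter, DESeq2 1.42.0, limma-voom (limma 3.58.1), a replicate block, a stricter threshold and leaving out each library. Members, lists and rules were chosen with earlier results of these data known. Named per family were up to 4 called genes per direction by p, the 2 with the highest FPKM, those with at most 3 counts in 1 pool and at least 10 in each library of the other, and further members of their loci. Floors and intervals hold counting error alone. No name was taken from the RefSeq gene table, which matched 0 of the IDs. Figures were made with matplotlib 3.10.9 in Python 3.11.15.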

Additional observations from a re-analysis of the deposited data

How the results depend on the processing

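The authors' selection by size of change largely fixes the direction of every listed gene, so its stability says nothing here. Against 11 NAC and 17 ERF genes called, and 1713 of all tested genes, TMM factors and DESeq2 size factors over the listed genes each called 1 NAC and 9 ERF genes (1250 and 1246 of all), column sums called 3 and 11 (1530 of all), and an adjusted p of at most 0.01 called 5 and 10 (1112 of all). These scalings raised log2 fold changes by a median of 0.84, 0.94 and 0.36. WRKY calls were 6, and 5 to 7 with these settings, but their split into higher and lower went from 2 and 4 to 4 and 1 with TMM, 5 and 1 with DESeq2 size factors and 4 and 3 with column sums. Leaving out 1 library called 5 to 9 NAC, 4 to 7 WRKY and 9 to 15 ERF genes, and 1109 to 1434 of all. DESeq2, limma-voom and no filter kept each family's count within 1.5 times. Same-numbered libraries of both pools showed no clear pairing in the data, with correlations of deviations of 0.0411, 0.0104 and 0.0059. Long silique replicates 1 and 3 correlated best with the short library of their number, and long silique replicate 2 with short silique replicate 3 (0.0262). Correlations this small cannot settle whether libraries were paired. The replicate block called 6 NAC, 5 WRKY and 13 ERF genes, and 1228 of all. Over all 13 fits, 8 of 17 ERF, 3 of 6 WRKY and 1 of 11 NAC calls held each time. Low counts limit 17 members to a description.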

Other observations

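A transcript length was computed from counts, FPKM and library totals. Of 14 ERF and DREB genes with at least 50 counts in a library, 11 had an implied length of at least 95% of their genomic span, against 16.0% of 1709 listed genes, 0 of 11 NAC and 0 of 8 WRKY genes. The ERF113 genes were exceptions, with implied lengths of 28.7% and 34.7% of the span. The library totals were themselves recovered from genes whose length equals their span.

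By subgenome, 20 of the 30 ERF genes lay on C chromosomes or C scaffolds and 10 on A, NAC genes were at 11 and 11, and WRKY genes at 6 and 11, while all listed genes were at 1719 on C and 1505 on A.

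The RRS1 copy BnaA02g23840D had 0 counts over the long libraries against 102 over the short, and a mean FPKM of 0 and 0.220. The authors' deposited table gave it a log2 fold change of -1.69, while its counts gave a bound of at least 32.8-fold.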
